A study of Mus musculus with 4 samples.

Results

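Translation initiation factors (Eif genes) and elongation factors (Eef genes) were described by the N6-methyladenosine (m6A) sites mapped on their transcripts in mouse macrophages. Members were the genes whose symbol in the deposited tables starts with Eif or Eef followed by a digit, with Eif2ak2 left out, and 53 of the 8800 genes with a called site met that rule. A called site was needed for membership, so genes of the family without any site are counted separately below. The cells were macrophages grown from the bone marrow of wild-type animals, 2 mice in all. Every culture had received LPS, a bacterial cell wall component that activates macrophages, for 3 h, so no resting cells serve as a comparison. NTC, a term in the names of both tables, is not explained in the labels. Each mouse gave 1 library of RNA fragments bound by an m6A antibody (IP) and 1 input library, and RNA had been selected for polyadenylated molecules first. The assay, m6A-eCLIP, crosslinks the antibody to the RNA and places each site at a single nucleotide from the positions where reads start.

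Translation of most messenger RNAs begins when the cap-binding factor Eif4e, the scaffold Eif4g and the helicase Eif4a load the small ribosomal subunit, which already carries Eif3 and the ternary complex of Eif2, GTP and initiator tRNA. Eif1, Eif1a and Eif5 govern the choice of the start codon, Eif5b joins the large subunit, and Eef1 and Eef2 then deliver aminoacyl-tRNA and move the ribosome. Phosphorylation of Eif2 by stress kinases and the binding of Eif4e by 4E-BP proteins lower the rate of initiation, and in activated macrophages both routes are known to shape the output of inflammatory transcripts. m6A itself is placed mainly on adenosines that follow A or G and precede C, is most frequent near stop codons and in long coding exons, and is read by YTH domain proteins that affect decay and translation. An adenosine next to the cap can carry a related mark, m6Am, which m6A antibodies also bind.

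Called sites numbered 45668 in mouse 1 and 47747 in mouse 2. For each site the authors' deposited table lists a score and a fold, the ratio of read starts in IP to those in input. Library depth is unknown because no read numbers were given. A fold therefore has no error of its own, and the other mouse is the replicate check. A site was called enriched at a fold of at least 8 (a log2 fold of 3), and shared when the same nucleotide and strand was enriched in both mice. As a check of the labelled cell type, all 8 macrophage markers looked up had a called site, among them Spi1, Csf1r and Adgre1. None of 6 lymphocyte markers and none of 6 stromal, endothelial and erythroid markers had a called site, while 5 of 6 neutrophil markers did (Ngp, Camp, Ltf, S100a8 and S100a9), and their part in the results was not tested. A site count or fold does not separate the methylated share of a transcript from the abundance of that transcript.

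A called site was found in both mice for 49 of the 53 genes, beside 7827 of all 8800 genes. Of these 49 genes, 45 (91.8%, exact 95% interval 80.4% to 97.7%) carried a shared enriched site. The background, over the 7827 genes called in both animals, was 86.9%, a value inside that interval. At a log2 fold of at least 4, 29 of the 49 genes (59.2%) carried a shared site, against a background of 60.2%. The 45 genes carried 113 shared enriched sites. Mouse 1 had 181 called sites in the 53 genes, 144 of them (79.6%) enriched, and mouse 2 had 188, with 148 (78.7%) enriched, beside 81.7% and 79.1% of all called sites. Intervals cover counting error only, and sites of a transcript are not independent. No test of the list was made, since its members were chosen with results of these data known.

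Few sites per gene was the usual picture. Of the 45 genes, 19 (42.2%) carried a single shared enriched site, 20 carried 2 to 4 and 6 (13.3%) carried 5 or more. Over all 6798 genes with such a site these shares were 28.1% for a single site and 29.6% for 5 or more, and the median was 2 sites in the translation factors against 3 over all genes. Counts were not corrected for transcript length. The 6 genes with 5 or more sites were Eif3a and Eif4g1 with 8 each, Eif1a and Eif4e2 with 7 each, and Eif2b1 and Eif4ebp1 with 5 each. Together they held 40 of the 113 sites (35.4%).

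**Figure D1:**
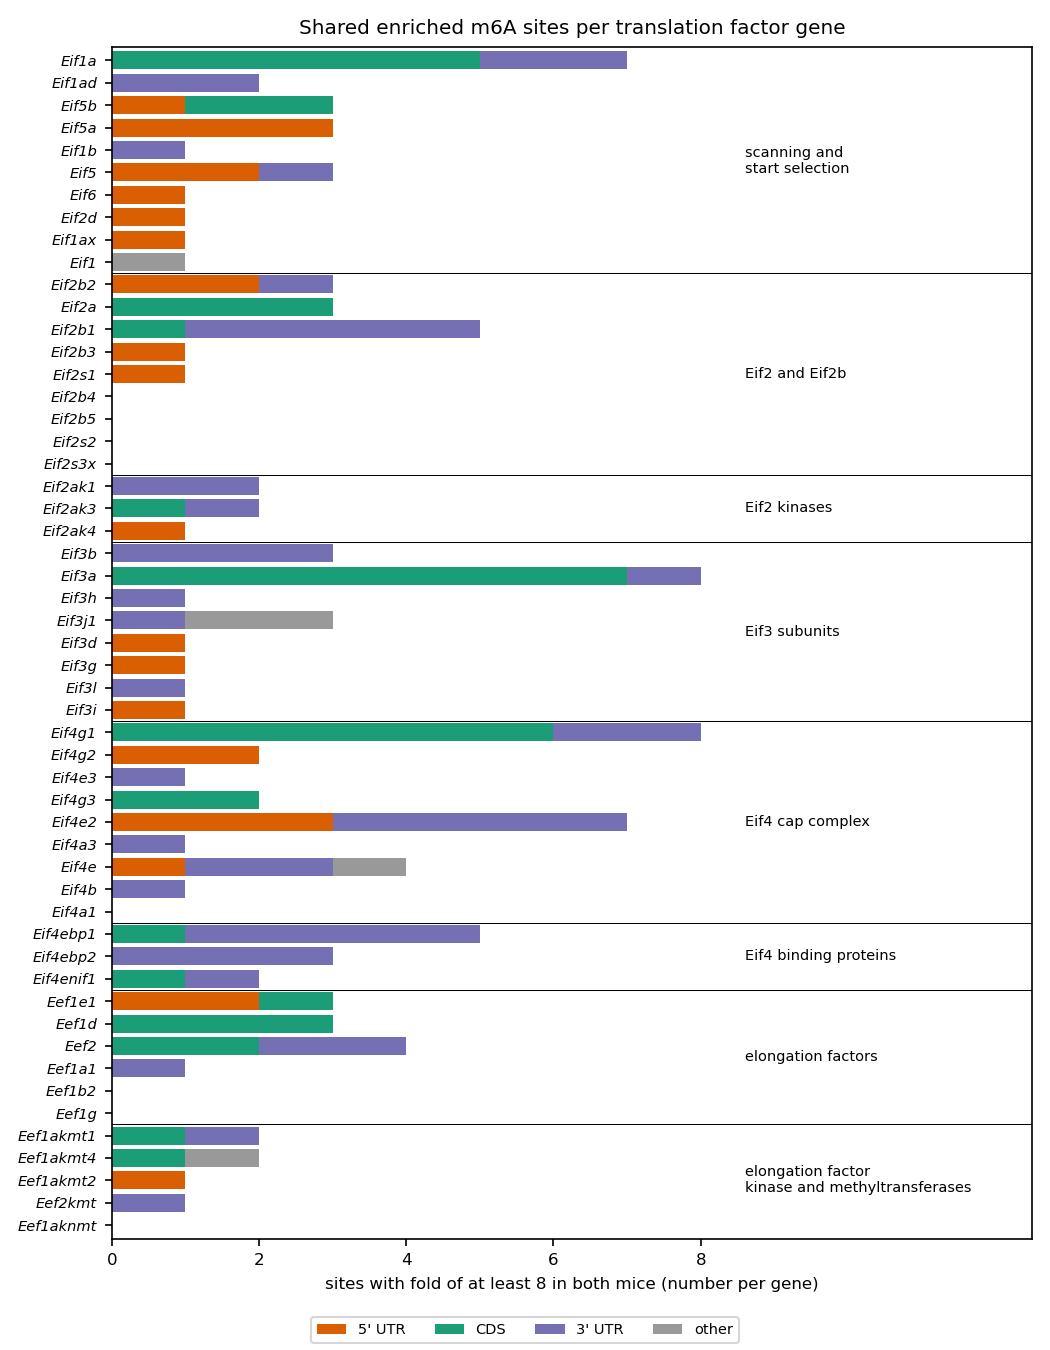
Number of sites with a fold of at least 8 in both mice (x axis) for each of the 53 genes (y axis), stacked by annotated position and grouped by role, with genes without such a site shown as empty rows. Eif3a and Eif4g1 reach 8 sites, most of them in coding sequence, while 8 genes have none.

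The strongest shared site of the 45 genes had a median fold of 24.4 in mouse 1 (lowest 8.52, highest 106.3) and of 25.0 in mouse 2 (lowest 9.98, highest 246.5). On the log2 scale the median over genes of the mean fold of that site was 4.49, beside 4.81 over all genes with a shared enriched site. A fold of at least 50 in both mice was reached by 3 genes: Eif4g1, Eif4ebp1 and Eef1e1. Ordered by mean log2 fold among the 6798 genes, Eif1a stood at place 540, Eif4g1 at 650, Eif4ebp1 at 900, Eif3b at 1026 and Eef1e1 at 1057. At the other end Eef1a1 stood at place 6685 and Eif1 at 6637.

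**Figure D2:**
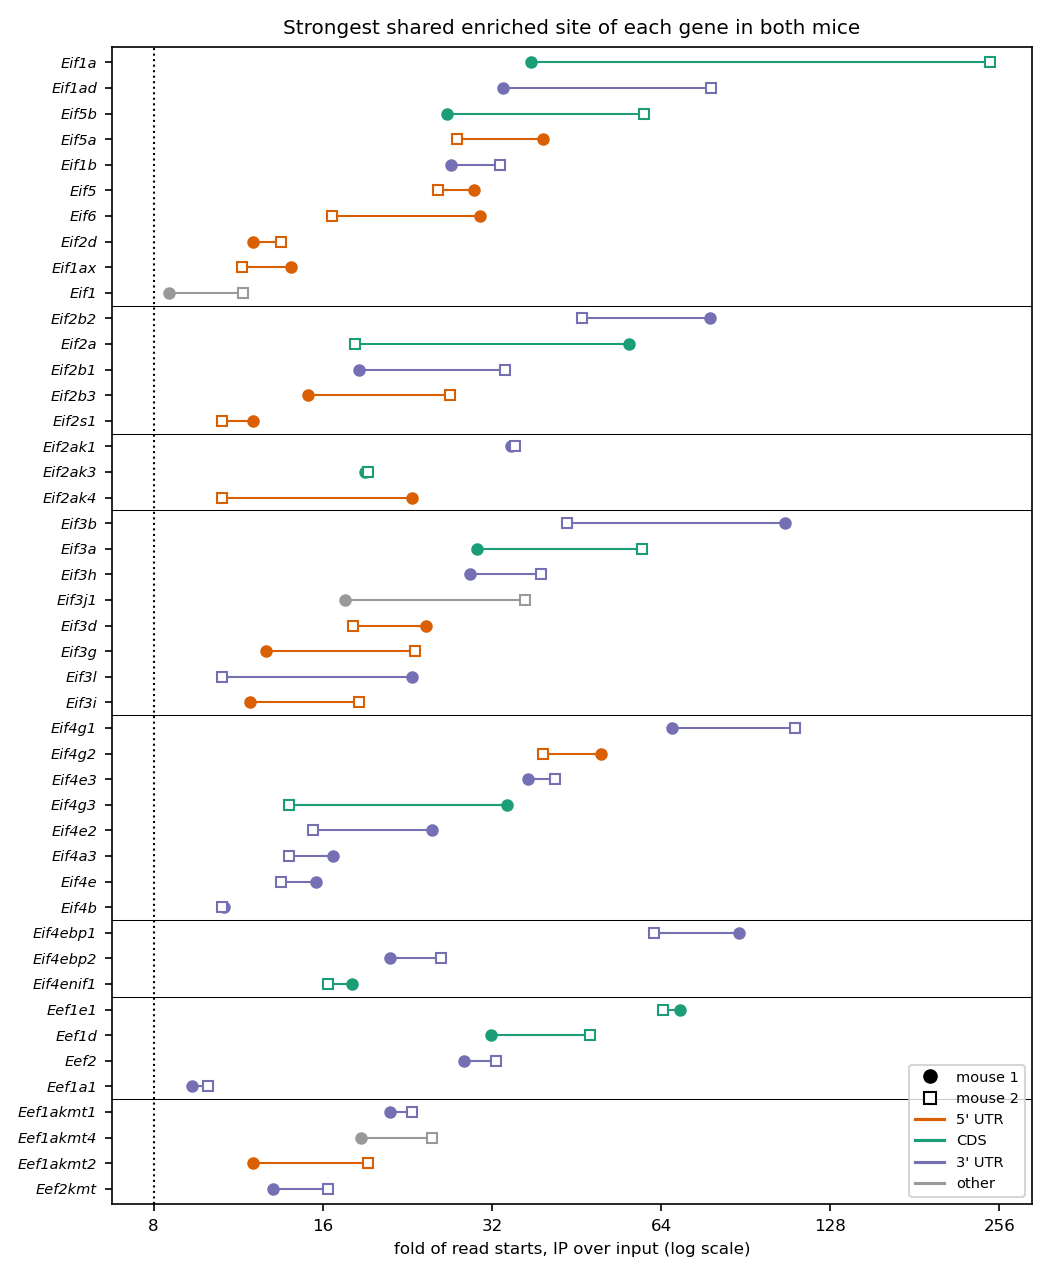
Fold of the strongest shared enriched site of each of the 45 genes (x axis, log scale) in mouse 1 (filled circles) and mouse 2 (open squares), coloured by annotated position, with the limit of 8 dotted. Eif1a has the widest gap between the mice (37.5 and 246.5), while Eif2ak1 and Eif2ak3 lie at nearly the same fold in both.

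Factors of scanning and start codon selection, with which Eif2d, Eif5a and Eif6 were grouped, all carried a shared enriched site. These were 10 genes of 10, with 23 sites in all. For this and the following roles, the background over all genes called in both mice is 86.9%. Eif1a, an autosomal gene for the factor eIF1A, led with 7 sites, of which 5 were coding and 2 were in the 3' UTR. Its strongest lay in coding sequence on chromosome 18 at position 46607923, with folds of 37.5 in mouse 1 and 246.5 in mouse 2. Divided by a constant inferred for each mouse from its folds, the fold at this site was 256 in mouse 2 and 37.4 in mouse 1. The number of read starts behind it is unknown. The coding site of Eif1a at 46608055 had folds of 28.7 and 73.2, and the 3' UTR site at 46608235 had 94.3 and 33.4. The mice thus did not order the sites of Eif1a alike. A further 3' UTR site at 46608547, also called in both, had folds of 5.82 and 8.30 and passed the limit in mouse 2 alone.

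The X-linked gene of the same factor, Eif1ax, had its site in another part of the transcript. It had a single called site in each mouse, in the 5' UTR on chromosome X at 159372209, with folds of 14.0 and 11.5. No source used here states how reads that fit both Eif1a and Eif1ax were assigned, so the values of both are uncertain. Eif1ad, a protein with an eIF1A-like domain, had 2 shared sites in the 3' UTR, the strongest on chromosome 19 at 5370118 (folds of 33.4 and 78.5). Eif5b, the GTPase of subunit joining, had its strongest in coding sequence on chromosome 1 at 38018997 (26.6 and 59.7). A 5' UTR site of Eif5b at 37998129 was weaker in mouse 1, with a fold of 10.4 against 59.7 in mouse 2.

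Eif5a, which carries the amino acid hypusine and helps ribosomes through difficult peptide bonds, had all 3 of its shared sites in the 5' UTR, the strongest on chromosome 11 at 69921338 (39.5 and 27.7). Eif5, the GTPase-activating protein of Eif2, had 2 of its 3 in the 5' UTR, led by chromosome 12 at 111538216 (29.7 and 25.7). Eif6, which keeps ribosomal subunits apart, had 4 called 5' UTR sites in each mouse. A single site of Eif6 was shared (30.4 and 16.6), because the other 3 lay between 7.52 and 7.77 in mouse 1 and between 9.82 and 17.0 in mouse 2. Eif1b had a shared 3' UTR site (27.1 and 33.1) and Eif2d a 5' UTR site (12.0 and 13.5). Eif1 was near the limit, with folds of 8.52 and 11.6 at a site annotated as a 3' splice site.

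The genes of Eif2 and of its exchange factor Eif2b had the most members without a shared enriched site, 4 of 9. Only 7 of the 9 were called in both mice, and 5 of these 7 carried one, beside 86.9% of all genes called in both. The difference was not tested. Eif2 brings initiator tRNA to the ribosome, and Eif2b reloads it with GTP. Of the Eif2b subunits, Eif2b2 had the strongest site, in the 3' UTR on chromosome 12 at 85226293, with folds of 78.2 and 46.2. It also had 2 shared 5' UTR sites 11 bases apart, with folds of 16.0 and 29.8, and of 18.1 and 40.4. Eif2b1 carried 5 shared sites, 4 in the 3' UTR and 1 in coding sequence, the strongest on chromosome 5 at 124571069 (folds of 18.6 and 33.7). The other 3' UTR sites of Eif2b1 had folds of 16.0 to 37.1 in mouse 1 and of 10.1 to 16.4 in mouse 2, so mouse 1 was the higher at each of these 3 and the lower at the strongest.

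Eif2b3 had a single called site, in the 5' UTR, enriched in both mice (15.0 and 27.0). Eif2b4 was called in mouse 1 only, in the 5' UTR (chromosome 5 at 31193036), and had a fold of 5.52. Eif2b5, the catalytic subunit of the exchange factor, was called in mouse 2 only, with a 3' UTR site on chromosome 16 at 20509229 and a fold of 5.78. No subunit of Eif2b was therefore without a called site, but 2 of the 5 were below the limit and in a single mouse.

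Among the subunits of Eif2 itself, Eif2s1, the alpha subunit that stress kinases phosphorylate, had a shared 5' UTR site on chromosome 12 at 78861935 (12.0 and 10.6). The gamma subunit gene Eif2s3x was called at the same 5' UTR nucleotide in both mice, on chromosome X at 94212657, but its folds of 7.02 and 8.21 fell on either side of the limit. The beta subunit gene Eif2s2 was called in the 3' UTR (chromosome 2 at 154872600), where its folds of 2.88 and 2.23 were below the limit in both animals. Eif2a, a factor for initiator tRNA that acts apart from Eif2, had 3 shared coding sites, the strongest on chromosome 3 at 58548513 (56.2 and 18.3).

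All 3 Eif2 kinases that are members carried shared enriched sites, 5 in all. Eif2ak1, the heme-regulated kinase HRI, had its strongest in the 3' UTR on chromosome 5 at 143902038, with folds of 34.6 and 35.1. A neighbouring 3' UTR site at 143902092 had folds of 34.1 and 23.6. Eif2ak3 encodes PERK, the kinase of endoplasmic reticulum stress, and carried a coding site (chromosome 6 at 70892667) whose folds were 19.1 and 19.3. Eif2ak4, the amino acid sensor GCN2, had a single called site, in the 5' UTR on chromosome 2 at 118388662, at 23.1 in mouse 1 and 10.6 in mouse 2.

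Subunits of Eif3, the large scaffold of the small ribosomal subunit, were split between genes with sites and genes without. All 8 with a called site carried a shared enriched site, 19 in all, while no site was called for Eif3c, Eif3e, Eif3f, Eif3k and Eif3m. Eif3b led with a 3' UTR site on chromosome 5 at 140443192 (106.3 and 43.5), and a second 3' UTR site of it at 140443273 had folds of 39.1 and 81.3, so the mice disagreed on which was the stronger. Eif3a, the largest subunit, had 7 coding sites and 1 in the 3' UTR. Its strongest lay on chromosome 19 at 60766639 (30.1 and 59.2), and the coding sites at 60766632 (39.4 and 33.2) and 60766680 (23.1 and 44.3) lay beside it.

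A single 3' UTR site was shared in Eif3h, on chromosome 15 at 51786691 (29.2 and 39.1), and in Eif3l (23.1 and 10.6). Single 5' UTR sites were shared in Eif3d (24.4 and 18.1), Eif3g (12.7 and 23.4) and Eif3i (11.9 and 18.5). Eif3i shows how much a site can differ between the animals, since a nucleotide 2 bases away had folds of 36.1 in mouse 1 and 6.36 in mouse 2. Eif3j1 had 2 of its 3 shared sites annotated as a noncoding exon, led by 17.5 and 36.6. They lie between positions 122028626 and 122028659 of chromosome 2, which mouse 2 alone called and which are annotated as 5' UTR. Counts by position below follow the annotation, so these 2 sites are not counted as 5' UTR. A near-identical copy, Eif3j2, had no called site, and no source used here states how reads of such copies were assigned, so the Eif3j1 values are uncertain.

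The Eif4 cap complex held the most shared sites of any role, 26 in 8 of 9 genes. Eif4g1, the scaffold that joins the cap-binding protein to the ribosome, had the highest folds of the class, in the 3' UTR on chromosome 16 at 20692464 (67.0 and 110.9). The nearby sites at 20692427, in coding sequence (50.3 and 65.1), and at 20692497, in the 3' UTR (55.4 and 76.7), followed. The other 5 shared sites of Eif4g1 lay further upstream in coding sequence. Eif4g2, which lacks the cap-binding arm and is also known as DAP5, had both of its called sites in the 5' UTR, the strongest on chromosome 7 at 111083020 (50.1 and 39.5). Eif4g3, the other scaffold, had 2 shared coding sites, led by 34.1 and 14.0, and 4 sites that only mouse 2 called.

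Of the cap-binding proteins, Eif4e had 4 shared sites at moderate folds, the strongest in the 3' UTR on chromosome 3 at 138555592 (15.5 and 13.5). Eif4e2, a homologue tied to translational repression, had 7 shared sites, 3 in the 5' UTR and 4 in the 3' UTR, and its strongest on chromosome 1 at 87239428 had folds of 25.1 and 15.4. Eif4e3 had a single called site, on chromosome 6 at 99626861 (37.1 and 41.4), which the table of mouse 1 placed in the 3' UTR and that of mouse 2 in an intron. The order by number of sites and the order by fold thus differed among the 3 homologues.

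Helicase genes carried little. Eif4a3, the Eif4a homologue of the exon junction complex, had a shared 3' UTR site (16.7 and 14.0). Eif4a1, the main helicase of initiation, was called in mouse 1 only, with an intronic site on chromosome 11 at 69671225 and a fold of 6.52, and no site was called for Eif4a2 or for the cofactor gene Eif4h. Eif4b, another cofactor of the helicase, had a shared 3' UTR site just over the limit (10.7 and 10.6).

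The Eif4e-binding proteins had no shared enriched site in a 5' UTR. Eif4ebp1, the 4E-BP1 that mTOR kinase phosphorylates, carried 5 shared sites, 4 of them in the 3' UTR. The strongest lay on chromosome 8 at 27275332 (88.0 and 62.1), between sites at 27275273 (68.2 and 34.3) and 27275374 (66.2 and 34.9). At each of these 3 sites mouse 1 was the higher. The coding site at 27275104, with folds of 12.2 and 24.7, went the other way. Eif4ebp2 carried 3 shared 3' UTR sites, the strongest on chromosome 10 at 61431673 (21.1 and 26.0). Eif4enif1, the transporter that takes Eif4e into the nucleus, had a coding site on chromosome 11 at 3244083 (18.1 and 16.4) and a 3' UTR site.

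Among the elongation factor genes, 4 of 6 carried a shared enriched site, and 5 of the 6 were called in both mice. Eef2, the translocase, had 4 called sites in each mouse and all 4 were shared, with 2 coding and 2 in the 3' UTR. The strongest lay on chromosome 10 at 81182139 with folds of 28.6 and 32.5, and the lowest had 22.8 and 16.3. Eef1d, a subunit of the nucleotide exchange complex of Eef1a, had 3 shared coding sites, the strongest on chromosome 15 at 75895893 (31.8 and 47.8). Eef1e1 had the highest folds of the class, in coding sequence on chromosome 13 at 38646191 (69.2 and 64.5), with a 5' UTR site at 38658998 (54.2 and 27.9). Despite its symbol, Eef1e1 encodes an accessory protein of the aminoacyl-tRNA synthetase complex.

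The Eef1a1, Eef1b2 and Eef1g genes had no shared site with a fold of 10 or more. Eef1a1, which brings aminoacyl-tRNA to the ribosome, had a single site (chromosome 9 at 78478633), at 9.36 in mouse 1 and 9.98 in mouse 2. Eef1b2 was called in mouse 2 only, in the 3' UTR on chromosome 1 at 63179744 with a fold of 9.63. Eef1g had 6 called sites in each mouse and none shared and enriched. The 4 sites of Eef1g called in both mice lay close together in coding sequence, with folds of 2.90 to 5.73 in mouse 1 and 2.21 to 4.62 in mouse 2. Each mouse had a 3' UTR site of Eef1g above the limit, but at nucleotides 12 bases apart: chromosome 19 at 8978170 in mouse 1 (23.1) and at 8978182 in mouse 2 (27.9). Genes such as Eef1a1 have many processed copies in the genome, and no source used here states how reads that fit several of them were handled.

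The enzymes that methylate the elongation factors carried 6 shared sites in 4 of 5 genes. Eef1akmt1 led with a 3' UTR site on chromosome 14 at 57549715 (21.1 and 23.1). Eef1akmt4 had a site on chromosome 16 at 20618652 annotated as a distal intron (18.7 and 25.0), and overlapping transcripts there make its gene name uncertain. Eef1akmt2 had a shared 5' UTR site on chromosome 7 at 132852616 (12.0 and 19.3), and Eef2kmt a 3' UTR site (13.0 and 16.4). Eef1aknmt was called once in each mouse at different places, in coding sequence on chromosome 1 at 162545869 in mouse 1 (9.03) and in the 3' UTR at 162534237 in mouse 2 (4.33). No site was called for Eef2k, the kinase that inhibits Eef2.

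Of the 70 protein-coding genes of the family in the RefSeq table of GRCm38.p6, 17 had no called site under their symbol. The share of all protein-coding genes without a called site was not worked out, so this count has no background beside it. Besides the 5 subunits of Eif3, Eif4a2, Eif4h and Eef2k, these were Eef1a2, Eef1akmt3, Eef1akmt4-ece2, Eif2s3y, Eif3j2, Eif4a3l1, Eif4e1b, Eif4ebp3 and Eif5a2. Eif4ebp3 is counted here although a site was called under a joined gene name that includes it, described at the end. For Eif3j2 the assignment of reads is unknown, as stated above. Depth and the handling of reads that fit several genes are unknown. For the other uncalled genes, low expression, loss of such reads and absence of the mark therefore cannot be told apart.

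Agreement between the mice was close to that over all genes. Of the 144 sites enriched in mouse 1, mouse 2 repeated 113 (78.5%, 70.9% to 84.9%) at the very nucleotide, beside 78.8% over all genes, and of the 148 of mouse 2 these made up 76.4%, beside 77.8%. Across the 147 sites of translation factors called in both mice, Pearson's r of the log2 folds was 0.69 and Spearman's rho was 0.67, against 0.74 and 0.70 over the sites of all genes. Points of a correlation share libraries and, within a gene, a transcript, and no p is given for that reason. The median absolute difference was 0.64 on the log2 scale, beside 0.56 over all genes. A difference of more than a factor of 2 was found at 37 of the 147 sites (25.2%), beside 26.8% over all genes. Of the 113 shared enriched sites, 52 had the higher fold in mouse 1. Sites called in a single mouse had low scores: the median was 14.9 for 34 sites of mouse 1 alone and 15.6 for 41 of mouse 2 alone, against 38.0 and 41.3 for sites called in both.

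**Figure D3:**
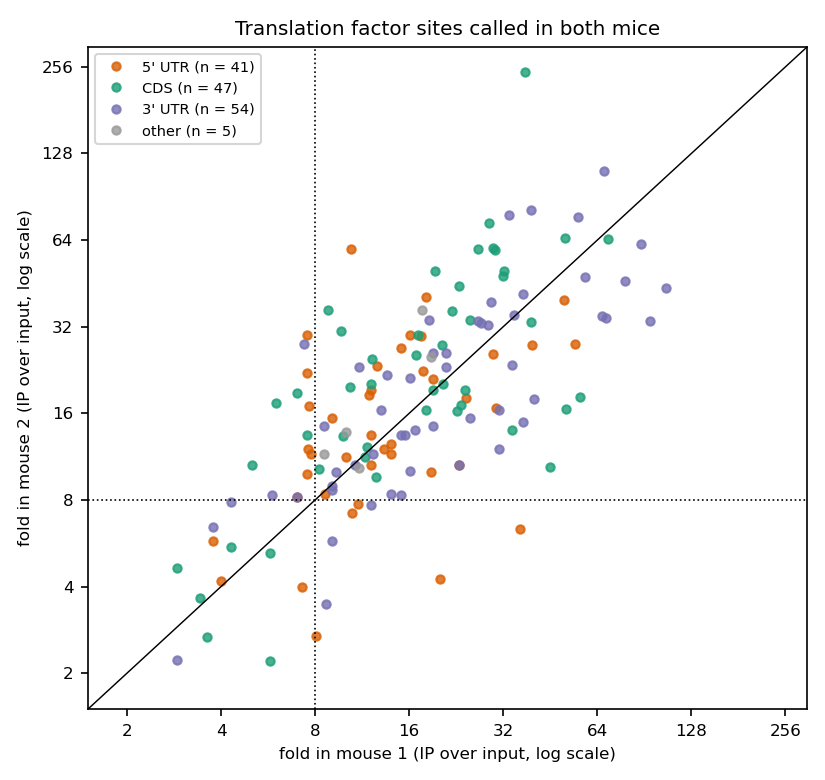
Fold in mouse 1 (x axis) against fold in mouse 2 (y axis), both on log scales, for the 147 translation factor sites called in both mice, coloured by annotated position, with the limit of 8 dotted and equal folds as a line. Both mice pass the limit at 113 points, mouse 1 alone at 8, mouse 2 alone at 14 and neither at 12.

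Sites lay in all parts of the transcript, in a mix that varied between the role groups used here. Of the 113 shared enriched sites, 26 (23.0%, 15.6% to 31.9%) lay in 5' UTRs, 37 (32.7%, 24.2% to 42.2%) in coding sequence and 45 (39.8%, 30.7% to 49.5%) in 3' UTRs. Over the shared enriched sites of all genes these shares were 13.9%, 43.4% and 38.1%. The other translation genes described below had 20 of 122 (16.4%) in 5' UTRs. In cytosolic ribosomal protein genes, matched by symbol, 23 of 32 shared enriched sites (71.9%, 53.3% to 86.3%) lay in 5' UTRs and none in coding sequence. By role, 9 of 23 sites lay in 5' UTRs in the scanning factors, 4 of 13 in Eif2 and Eif2b, 6 of 26 in the cap complex, 1 of 5 in the Eif2 kinases, 3 of 19 in Eif3, 2 of 11 in the elongation factors, where both belong to Eef1e1, 1 of 6 in the methyltransferases, and none of 10 in the Eif4e-binding proteins. Of the 9 sites of the scanning group, Eif5a held 3 and Eif6 and Eif2d 1 each, genes that were only grouped with the scanning factors. None of these differences between lists or groups was tested.

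Counted per gene, 12 of the 45 genes (26.7%) had all of their shared enriched sites in the 5' UTR, 6 (13.3%) had sites there and elsewhere, and 27 (60.0%) had none there. Over all genes these shares were 15.1%, 23.3% and 61.6%. The 12 genes were Eif5a, Eif6, Eif2d, Eif1ax, Eif2b3, Eif2s1, Eif2ak4, Eif3d, Eif3g, Eif3i, Eif4g2 and Eef1akmt2. Of the 6 genes with 5 or more sites, Eif4e2 alone had any in its 5' UTR. The 5' UTR sites of translation factors had a median fold of 15.5 in mouse 1 and 18.9 in mouse 2, the coding sites 22.8 and 25.5, and the 3' UTR sites 25.1 and 23.1.

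**Figure D4:**
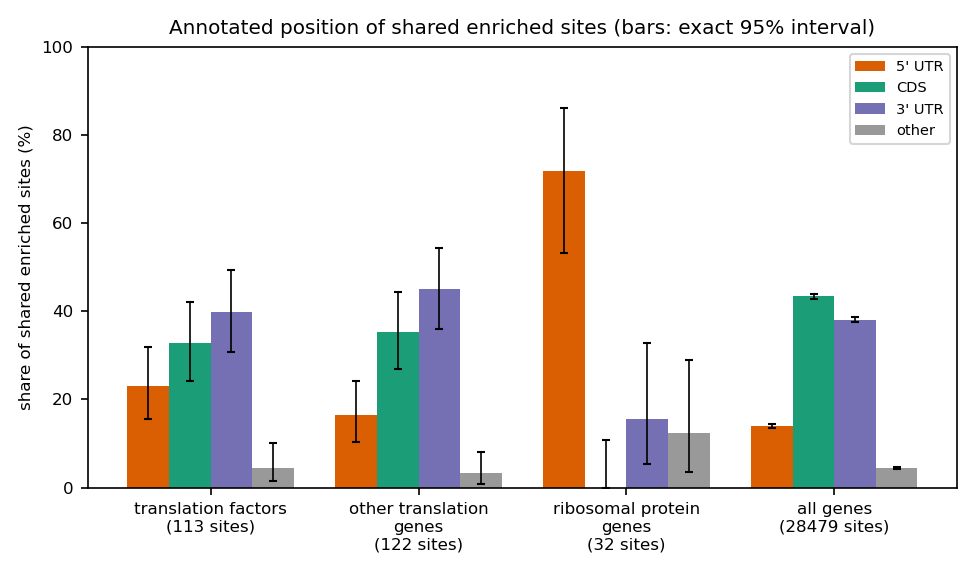
Share of shared enriched sites in each annotated position (y axis, percent, with exact 95% intervals as bars) for the translation factors, the other translation genes, the cytosolic ribosomal protein genes and all genes. The 5' UTR holds 23.0% in the translation factors, 71.9% in the ribosomal protein genes and 13.9% over all genes.

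The 5' UTR sites lay close to the annotated start of the gene. RefSeq starts were at hand for 42 of the 53 genes, and 21 shared enriched 5' UTR sites in 14 genes could be placed. Their median distance from the nearest start of their gene was 30 bases downstream (35 over all genes), and they ranged from 146 bases before it to 119 after it. Within 50 bases on either side lay 16 of the 21 (76.2%), beside 55.8% over all genes. Whether such sites carry m6A or the related m6Am was not tested. The 3 shared sites of Eif4e2 lay 13, 25 and 37 bases downstream, and those of Eif2b2 lay 29 and 40 bases downstream. Sites before the nearest start, 6 in all, belonged to Eif5a, Eif2d, Eif2s1, Eif3g and Eif4e, and are annotated as 5' UTR in the deposited tables. A gene can have several RefSeq starts. Those of Eif5a lie downstream of another RefSeq start of the gene, the one nearest to its strongest site.

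**Figure D5:**
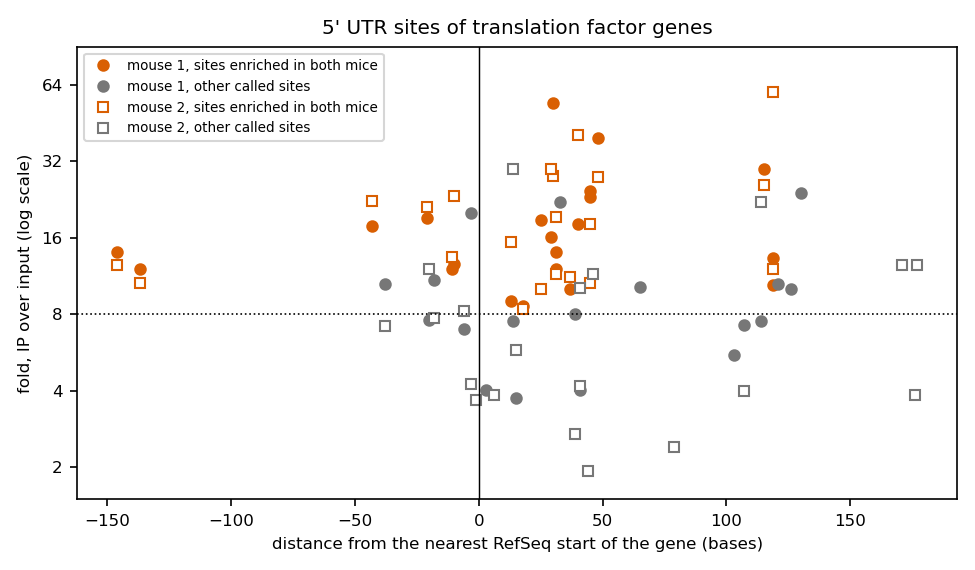
Fold (y axis, log scale) of the called 5' UTR sites of translation factor genes against their distance from the nearest RefSeq start of the gene (x axis, bases, negative before the start), with mouse 1 as filled circles and mouse 2 as open squares, sites enriched in both mice in orange and other called sites in grey. Most orange points lie between the start and 50 bases after it.

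Letters at some of these sites are shown because they tell which adenosine was called and what precedes it. The shared enriched sites of Eef1akmt2 and Eif2d, and that of Eef1e1 at 38659010, also have letters but are not printed. Each sequence is read 5' to 3' on the strand of the gene from the RefSeq promoter windows of GRCm38.p6, which shares its coordinates with mm10, and spans 17 bases. The capital marks the called nucleotide.
Eif2b2, chr12:85219500-85219516, plus strand: gaagtgaaacAgtgctt
Eif2b2, chr12:85219511-85219527, plus strand: gtgctttggcAattgag
Eif4e2, chr1:87213942-87213958, plus strand: gggacccggtAgagcgg
Eif4e2, chr1:87213954-87213970, plus strand: agcggaagtcActccgt
Eif4e2, chr1:87213966-87213982, plus strand: tccgtgaggcAgtggcg
Eef1e1, chr13:38658992-38659008, minus strand: gagctgggccAgaagat
Eif1ax, chrX:159372199-159372215, plus strand: ccgcgacgccAtttgcc
Eif5a, chr11:69921290-69921306, minus strand: gcgcctgcgtActaaga
Eif5a, chr11:69921312-69921328, minus strand: ttggttggtcAgtgggg
Eif3g, chr9:20898594-20898610, minus strand: tcctgtctttAcccggg
Eif2s1, chr12:78861925-78861941, plus strand: aggggcagtgActcttc
Eif4e, chr3:138527112-138527128, plus strand: aaaaaaaaagActccac

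The called base was A at all 34 member sites that fell in a promoter window, as it was at all 5264 called sites of any gene in such a window. The site caller is not stated, so whether only adenosines could be called is unknown. Of the 18 shared enriched member sites in a window, 12 (66.7%) had C before the called A, the letters CA. This was also so at 72.4% of the 1975 shared enriched sites of all genes. For comparison, 29.4% of all adenosines in the promoter windows of all genes follow a C on the strand of the gene. These windows run from 250 bases before a RefSeq start to 50 after it. Their adenosines thus lie largely upstream of the start and are no background of 5' UTR bases alone. The letters AAC or GAC, with the called A in the middle, stood at 2 of the 18 sites (11.1%), those of Eif2s1 and Eif4e printed last above. Over all genes they stood at 2.79% of the shared enriched sites, and 10.6% of all adenosines in the windows are in these letters. A site cannot match both. Only the strand of the gene was read, since the letters are centred on a called nucleotide, and a match is a description of the letters in this window. Letters at coding and 3' UTR sites were not analysed here.

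Other genes of translation were taken from a list of 45 symbols for termination, recycling, signalling to the factors and the integrated stress response. A called site was found in 40 of them, in both mice for 37, and 30 carried a shared enriched site, which is 81.1% (64.8% to 92.0%) of the 37, beside the background of 86.9%. The highest folds belonged to Abcf1, an ATPase that binds Eif2, in its 3' UTR (146 and 449.7), and to Ppp1r15b, the constitutive subunit of the Eif2 phosphatase, in coding sequence (120.8 and 277.8). Larp1, the repressor of TOP transcripts that encode ribosomal proteins and translation factors, followed with 67.7 and 150.2, and then the termination factor gene Etf1 with 58.7 and 100.4. Ppp1r15b carried 23 shared enriched sites, Larp1 16 and Trib3 12, each more than any of the 53 factors. Eif2ak2, which the rule left out of the 53 factors, is counted in this list. No site was called for Pabpc1, Pdcd4, Rheb, Deptor and Gcn1. The 40 of 45 symbols with a called site likewise have no background share beside them.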

How the data were processed

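Macrophages of 2 mice were profiled with 1 IP and 1 input library each. The authors deposited 1 table of called sites per mouse, not pooled, with a score and a fold per site. Per the file headers, the fold is a linear ratio of read starts between IP and input. The score is the authors' value with no stated definition, and listed scores start at 10.0. STAR 2.6.0c, UMI-tools 0.5.1, cutadapt 2.7 and the builds mm10 and hg38 come from the submitters' processing notes. Neither site caller nor annotation release is stated there.

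The end of each interval was taken as the 1-based position. Sites with several joined gene names were left out. For 3 member sites the annotation differed between mice, and that of mouse 1 was used. All 53 symbols were found in the RefSeq table of GRCm38.p6, and 211 of the 222 member sites lay inside their gene there. A constant near 1 was inferred for each table as the value that made the largest share of its folds whole numbers (1.003 and 0.963). Divided by it, 49.7% and 48.9% of the member folds were whole numbers within 1e-06.

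Members and lists were chosen with earlier results of these data known. Full values are given for the 3 highest genes of each role, genes with 5 or more shared enriched sites, those with none, those called in a single mouse and the 4 highest of the list of other translation genes. Other genes and sites named were chosen after their values were seen. Eif2a was grouped with Eif2 by its symbol, and Eif2d, Eif5a and Eif6 with the scanning factors. The script that matches sites between mice was tested on simulated data. Python 3.11.15, pandas 2.3.3, NumPy 2.4.6, SciPy 1.17.1 and Matplotlib 3.10.9 were used.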

Additional observations from a re-analysis of the deposited data

How the results depend on the processing

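Alternatives were the fold limit, the score, the merging of near sites, joined gene names, the member list and each mouse left out. At a log2 fold of at least 4, 29 members carried a shared enriched site in place of 45, at 63 sites in place of 113, and 47.4% of called member sites were enriched in place of 79.1%. At a log2 fold of at least 1 that share was 99.2%. With scores of at least 20 it was 87.5%, and 86.3% of the enriched member sites of mouse 1 were shared in place of 78.5%. With a single mouse, 47 to 48 members carried an enriched site, at 144 to 148 sites, and the share of these in 5' UTRs was 25.0% to 25.7%. That share ranged from 17.5% (log2 fold of at least 4, interval 9.05% to 29.1%) to 28.9% (strongest site of each gene). For the strongest site the share over all genes was 20.3%. At a log2 fold of at least 4 the share over all genes was not worked out. No paired analysis was possible because the results come from no test. The deposited fold is itself the ratio of IP to input within a mouse, and no test over the 2 mice was made. Depth is unknown, so no limit from read numbers can be given.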

Other observations

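Shared enriched sites of a gene often lay close together. Of the 68 gaps between neighbouring shared enriched sites of translation factor genes, 40 (58.8%) were at most 100 bases, beside 53.6% over all genes, and the median gap was 78 bases.

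Sites under joined gene names belonged to no member. The site on chromosome 18 at 36665735, named for both Eif4ebp3 and Maskbp3, lay in a 3' UTR and had folds of 8.36 and 20.2. The site on chromosome 16 at 20617782, named for Eef1akmt4 and Gm49333, lay in coding sequence and had folds of 30.1 and 36.6. The kinase gene Eif2ak2, left out by the rule, carried 3 shared enriched sites, the strongest in the 5' UTR (52.1 and 33.7).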
